A study of Arabidopsis thaliana with 3 samples.

Results

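The transcriptional network that sets hair and non-hair fate in the root epidermis of Arabidopsis thaliana was represented by 10 genes: WEREWOLF (WER, AT5G14750), MYB23 (AT5G40330), GLABRA3 (GL3, AT5G41315), ENHANCER OF GLABRA3 (EGL3, AT1G63650), TRANSPARENT TESTA GLABRA1 (TTG1, AT5G24520), GLABRA2 (GL2, AT1G79840), CAPRICE (CPC, AT2G46410), TRIPTYCHON (TRY, AT5G53200), ENHANCER OF TRY AND CPC1 (ETC1, AT1G01380) and SCRAMBLED (SCM, AT1G11130). They were chosen by locus, for their known role in this network and not for their accessibility, although earlier results of these data were known. They are 10 of 27444 protein-coding nuclear genes. For each gene the window ran from 3000 bp upstream of the annotated transcription start site (TSS) to 500 bp past the gene end. Chromatin accessibility had been measured by ATAC-seq, in which a transposase cuts and tags DNA that is not protected by nucleosomes, in 3 libraries of a single group. That group was roots of Col-0 plants at 14 days of age. All plants carried an INTACT transgene, in which the constitutive 35S promoter drives a nuclear envelope domain (WPP) joined to GFP and a biotinylated tag, and nuclei were captured on streptavidin beads. There was no untreated, mutant or other-organ group, so the design gives levels and their spread over libraries and no contrast. Since the promoter is constitutive, nuclei of all root cell types that expressed the tag were pooled. Hair and non-hair cells therefore cannot be told apart, and neither can a site open in few cells and a site weakly open in many.

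In the root epidermis, a cell that touches a single cortical cell becomes a non-hair cell and a cell lying over the cleft between cortical cells becomes a hair cell. In non-hair cells the R2R3 MYB proteins WER and MYB23, the bHLH proteins GL3 and EGL3 and the WD40 repeat protein TTG1 form a complex that activates GL2, a homeodomain protein that represses hair fate. The same complex activates CPC, which with TRY and ETC1 belongs to the small single-repeat (R3) MYB proteins. CPC moves to the neighbouring cells and there competes with WER for the bHLH proteins, while the receptor-like kinase SCM relays position and lowers WER expression in future hair cells.

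Sequences of accessible sites are printed here because the results turn on where the open DNA lies. All are from the RefSeq sequence of TAIR10.1, read on the strand of the gene, 5′ to 3′, with TAIR10 coordinates counted from 1. Capitals mark AACNG on either strand (CNGTT when it lies on the other strand), the core recognised by many plant R2R3 MYB proteins. The first pair are the promoter sites of CPC (minus strand of chromosome 2) and GL2 (plus strand of chromosome 1), and the third is the upstream site of SCM (plus strand of chromosome 1), which had the highest geometric mean over libraries of the fold enrichment over background, although in each single library another site was higher. WER had no promoter site, so none is shown.
CPC promoter site, chr2:19050480-19050718: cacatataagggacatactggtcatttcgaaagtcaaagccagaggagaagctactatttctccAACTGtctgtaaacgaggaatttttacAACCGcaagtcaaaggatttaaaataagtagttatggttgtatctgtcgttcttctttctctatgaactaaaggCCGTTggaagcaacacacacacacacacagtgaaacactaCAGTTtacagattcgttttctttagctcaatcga
GL2 promoter site, chr1:30036538-30036749: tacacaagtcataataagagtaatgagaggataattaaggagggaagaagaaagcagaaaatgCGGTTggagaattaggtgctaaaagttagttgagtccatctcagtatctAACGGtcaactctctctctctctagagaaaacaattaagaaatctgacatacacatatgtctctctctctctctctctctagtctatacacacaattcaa
SCM upstream site, chr1:3721501-3721721: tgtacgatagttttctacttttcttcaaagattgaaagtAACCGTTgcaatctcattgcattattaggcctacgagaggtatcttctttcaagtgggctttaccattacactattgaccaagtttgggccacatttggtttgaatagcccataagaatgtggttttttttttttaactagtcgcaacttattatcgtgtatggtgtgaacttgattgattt
The CPC promoter site held 4 matches to AACNG in 239 bp, the GL2 promoter site 2 in 212 bp and the SCM site 2 in 221 bp. The printed CPC and GL2 sites join calls of unequal width. Libraries 1 and 3 called chr2:19050480-19050584 and chr2:19050489-19050592 at CPC, so its first 2 matches as printed lay in DNA that library 2 alone called. Library 1 called chr1:30036632-30036747 at GL2, which leaves out the first GL2 match.

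A further set was chosen after the values were seen. It holds the central 200 bp of the widest site, which lies upstream of CPC (minus strand), the upstream site of GL2 outside its promoter (plus strand), and the part of the GL3 site (plus strand of chromosome 5) that lies in an intron.
CPC upstream site, centre, chr2:19051955-19052154: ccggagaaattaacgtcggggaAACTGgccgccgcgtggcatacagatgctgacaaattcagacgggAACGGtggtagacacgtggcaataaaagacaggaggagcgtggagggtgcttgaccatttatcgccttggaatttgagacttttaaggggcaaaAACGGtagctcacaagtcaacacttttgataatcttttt
GL2 upstream site, chr1:30035697-30035871: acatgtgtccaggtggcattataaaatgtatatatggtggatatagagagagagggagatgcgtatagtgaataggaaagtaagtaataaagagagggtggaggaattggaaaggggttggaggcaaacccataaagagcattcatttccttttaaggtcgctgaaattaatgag
GL3 intronic site, chr5:16530202-16530328: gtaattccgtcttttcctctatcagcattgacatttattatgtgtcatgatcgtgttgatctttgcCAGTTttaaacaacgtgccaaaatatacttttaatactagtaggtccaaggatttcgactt
The centre of the CPC upstream site held 3 matches to AACNG and 1 G-box (CACGTG), and 48% of its bases were G or C. The GL2 upstream site held none of the former in 175 bp and the GL3 stretch held 1 in 127 bp. A match is a run of letters and not a bound site.

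The deposited counts correspond to an estimated 9850039, 10223285 and 18130442 reads in libraries 1, 2 and 3, and the lists hold 26404, 36033 and 34828 accessible sites. Library 3 was thus the deepest and library 2 gave the most sites. The label of the tissue was checked against 5 genes of root cell types and 3 of leaf mesophyll. Promoter signal of the root genes (COBL9, EXPA7, SCR, CASP1 and PIN2) was 1.28 to 1.84 times the library mean and that of the leaf genes (RBCS1A, CAB1 and RCA) 0.956 to 2.20 times. The ranges overlapped, so promoter accessibility of these genes did not tell root from leaf. The study calls the libraries biological repeats and made them from unequal amounts of nuclei, rising from library 1 to library 3. Nothing in the labels says that they came from separate plants, and the part of this difference in the SD over libraries was not tested.

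Promoter accessibility differed widely among the members. The signal is the mean read count over the 400 bp upstream of the TSS divided by the mean count per window of that library, so that 1 is the genome average. CPC had the highest mean signal, ETC1, TTG1 and GL2 followed, and TRY, EGL3 and MYB23 lay below the genome average over these 400 bp. Counted upstream of the start codon in place of the TSS, the means of these 3 lay above it, at 1.07, 1.05 and 1.14. TRY was still below the genome average in library 1 (0.839), and EGL3 in libraries 1 and 3 (0.926 and 0.819). The start codons of TRY and EGL3 lie 299 and 396 bp past the TSS, so those 400 bp are mostly transcribed DNA. The median over the 10 members was 1.43, beside 1.35 over all protein-coding genes, and 5 of the 10 lay above the latter value. The range over libraries of CPC lay above that of ETC1, the next gene in the order of means, and the ranges of the other 8 pairs of neighbours overlapped. Within libraries, GL2 was nevertheless above GL3, and WER above MYB23, in 3 of 3. The means of CPC and ETC1 stood the other way round over 200 bp upstream (3.00 and 3.08). They did so too, by little, over 400 bp upstream of the start codon (2.56 and 2.57).

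**Figure D1:**
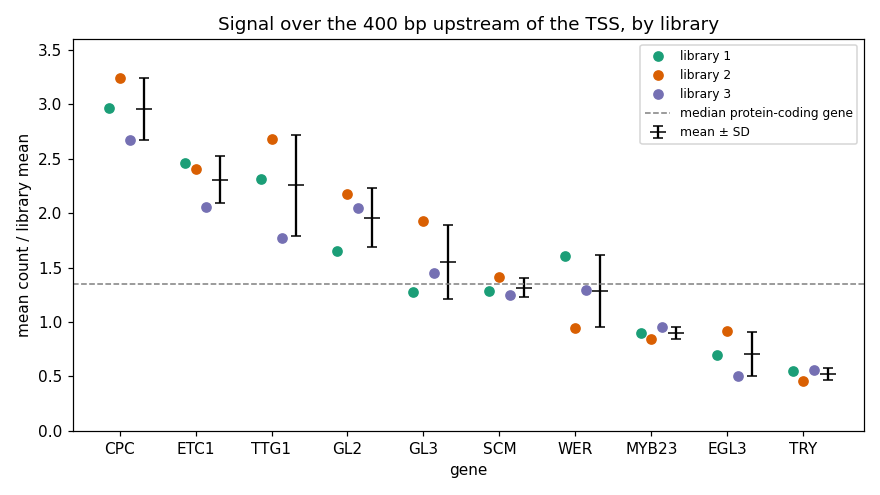
Mean read count over the 400 bp upstream of the TSS, in units of the library mean (y axis), for the 10 genes in order of their mean (x axis). Coloured points are libraries 1, 2 and 3, black bars the mean ± SD over 3 libraries, and the dashed line the median protein-coding gene (1.35). CPC stands highest at 2.96 and TRY lowest at 0.525.

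Accessible sites were called in the promoter of 4 members in every library, namely TTG1, GL2, CPC and ETC1. This is 4 of 10, beside 33.5% of all protein-coding genes. GL3 had a promoter site in library 2 alone, and WER, MYB23, EGL3, TRY and SCM had none in any library. Farther upstream, at 400 to 3000 bp, a site shared by all libraries and lying outside other genes and their promoters was found at 5 of 10 members (WER, EGL3, GL2, CPC and SCM), beside 18.1% of protein-coding genes. Most members have long stretches without a neighbouring gene upstream. For 7 of them (WER, MYB23, EGL3, TTG1, GL2, CPC and TRY) no other gene lay within 3000 bp upstream. The same held for 3275 of the 27444 protein-coding genes. Of these 7, 4 had a shared site at 400 to 3000 bp upstream, beside 45.3% of those 3275 genes. Here sites in the promoters of other genes were counted too, and leaving them out kept the same 4 members. The 4 of 7 is near that background. MYB23, GL3 and TRY had a site of neither class.

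In all, the windows held 35 sites after joining overlapping calls, of which 16 were called in all libraries, 8 in a pair of libraries and 11 in a single one. The share of shared sites was 45.7%, close to the 46.7% of the 43236 sites of the genome. Of the 16 shared sites, 4 lay in promoters, 2 from 400 to 1000 bp upstream, 9 farther upstream and 1 in an intron. Their median width was 230.5 bp, beside 284 bp for all shared sites, and summits of the libraries lay within 50 bp of each other at 9 of the 16. Library 2 alone called 7 of the 11 single-library sites, library 3 called 3 and library 1 called 1. Of the 35 sites, 12 lay nearer to the TSS of another gene and 4 inside another gene, so a site in a window is not thereby assigned to the member.

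**Figure D2:**
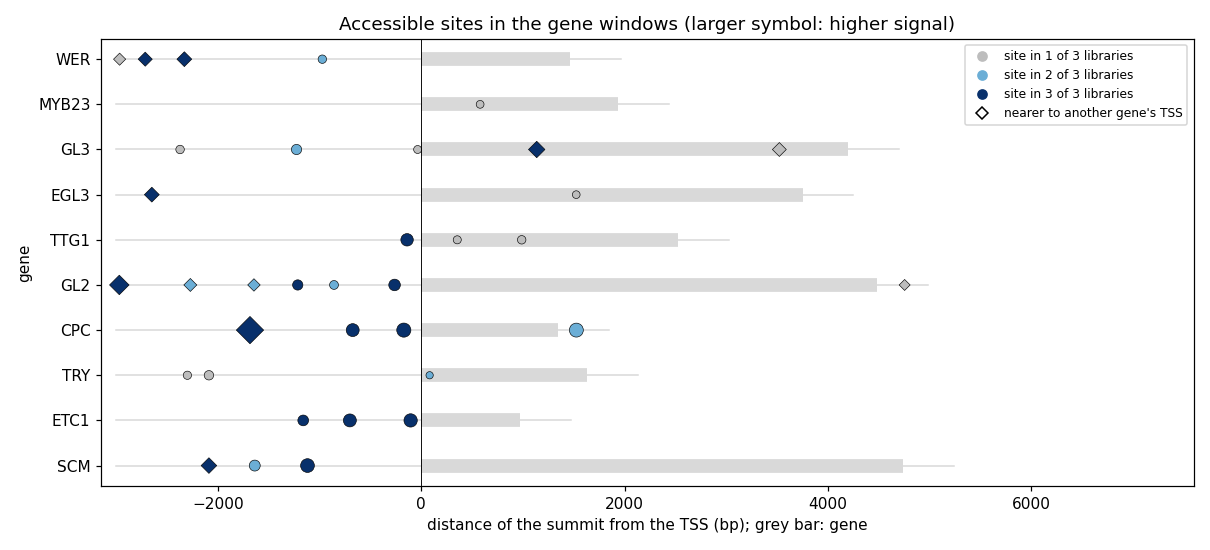
Accessible sites in the window of each gene, placed by the distance of their summit from the TSS in bp (x axis), with 1 line per gene (y axis) and the gene as a grey bar. Symbols are grey, light blue or dark blue for sites called in 1, 2 or 3 libraries, diamonds are sites nearer to the TSS of another gene, and symbol size grows with signal. CPC, ETC1 and GL2 each have 3 shared sites upstream and MYB23, GL3 and TRY have none.

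WER and MYB23 encode related R2R3 MYB proteins, WER being the main specifier of non-hair fate and MYB23 a target of the complex that reinforces it. WER (RefSeq symbol MYB66) lies on the minus strand of chromosome 5, from 4763372 to 4764834. Its promoter signal was 1.61, 0.947 and 1.30 times the library mean in libraries 1, 2 and 3, which average 1.28 ± 0.332 (SD, n = 3), at percentile 47.2 of protein-coding genes. Library 2 was the lowest here, although it was the highest of the 3 at 6 of 10 members and at 63.8% of protein-coding promoters. The highest library exceeded the lowest by 1.70 times, beside a median of 1.33 times over protein-coding genes. Reads were few, and the exact 95% Poisson interval of library 1 (1.21 to 2.10) overlapped that of library 2 (0.650 to 1.33). Such intervals cover counting error only.

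The shared sites of WER lay far upstream. Positions are given from the TSS at 0, negative upstream, and the fold enrichment is the deposited MACS2 ratio of the summit to its local background. The site at -2717 was 222 bp wide with a fold enrichment of 3.59, 3.33 and 2.87 in libraries 1, 2 and 3. The site at -2332 was 359 bp wide with 2.33, 4.26 and 2.54, library 2 being well above the others. Both lay nearer to the TSS of AO (AT5G14760), the divergent gene upstream, at 712 and 1097 bp from it. A weaker site at -974 was called in libraries 2 and 3, with 2.09 and 2.19.

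MYB23 lies on the plus strand of chromosome 5, from 16127725 to 16129661. Over its promoter the signal was 0.902, 0.841 and 0.953 times the library mean, a mean of 0.898 ± 0.0559 (SD, n = 3), at percentile 29.2. The exact 95% Poisson intervals of the libraries (0.607 to 1.29, 0.563 to 1.21 and 0.724 to 1.23) all included 1. From 3000 to 1000 bp upstream the signal was lower still, at 0.601 ± 0.0415 (percentile 15.5). The libraries differed little and all lay below the genome average in both regions. Nearer the gene this was not so, with a mean of 1.15 over 200 bp upstream of the TSS, and 1.06, 1.20 and 1.16 over 400 bp upstream of the start codon. The sole site in its window was in an intron at 579, called in library 2 with a fold enrichment of 2.89 and no call in the others. Thus WER and MYB23 shared the lack of a promoter site, and the range of WER (0.947 to 1.61) overlapped that of MYB23 (0.841 to 0.953).

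GL3 and EGL3, bHLH partners of the MYB proteins, act redundantly in the epidermis. GL3 lies on the plus strand of chromosome 5, from 16529090 to 16533287, and its promoter signal was 1.28, 1.93 and 1.45 times the library mean, a mean of 1.55 ± 0.336 (SD, n = 3), at percentile 58.5. Library 2 was the highest and was the single library with a promoter site, at -36, with a fold enrichment of 2.57. That site lay within AT5G06145, a long non-coding RNA gene on the other strand that overlaps the start of GL3, and which of the transcripts it belongs to cannot be told apart. The sole shared site was in an intron at 1136, 193 bp wide, with a fold enrichment of 2.89, 3.42 and 2.44 and a summit signal of 2.58 ± 0.537 times the library mean over 200 bp. It was the single shared site of the 10 windows with its summit downstream of the TSS of the member itself.

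EGL3 lies on the plus strand of chromosome 1, from 23599413 to 23603164. Its promoter signal was 0.694, 0.915 and 0.505 times the library mean, a mean of 0.705 ± 0.205 (SD, n = 3), at percentile 20.3. The highest library exceeded the lowest by 1.81 times, at percentile 93.1 of protein-coding genes, and rested on 23.0 to 31.4 estimated reads a library. EGL3 thus lay below the genome average in all libraries, whereas GL3 lay above it in all. The exact 95% Poisson intervals of EGL3 in libraries 1 and 2 (0.440 to 1.04 and 0.623 to 1.30) included 1, however. So did that of GL3 in library 1 (0.922 to 1.73). The ranges of this pair did not overlap here, but they did over 400 bp upstream of the start codon, where EGL3 had 0.926, 1.39 and 0.819 and GL3 had 1.05, 1.79 and 1.35. Farther upstream EGL3 had more signal, 1.57 ± 0.0769 from 3000 to 1000 bp (percentile 81.0), with a shared site at -2652. That site was 284 bp wide with a fold enrichment of 3.29, 2.97 and 2.72, and it lay nearer, at 836 bp, to the TSS of the divergent gene AT1G63640. Library 1 called it as 2 peaks, and the 3.29 belongs to the peak from -2696 to -2622. The library 3 call, from -2905 to -2752, did not overlap that peak. The library 2 call, from -2888 to -2624, joined them.

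TTG1, the WD40 protein that joins MYB and bHLH proteins, lies on the minus strand of chromosome 5, from 8370317 to 8372847. Signal over its promoter was 2.31, 2.68 and 1.77 times the library mean, a mean of 2.25 ± 0.461 (SD, n = 3), at percentile 80.8. Library 3, the deepest, was the lowest, and its exact 95% Poisson interval (1.45 to 2.13) lay just under that of library 2 (2.16 to 3.29). The median protein-coding promoter was likewise higher in library 2 (1.49) than in library 3 (1.28), and the ratio of 1.52 between the highest and lowest library of TTG1 stood at percentile 78.1 of these genes. The signal went on into the gene, with 2.14 ± 0.241 over the first 400 transcribed bp (percentile 85.9), the highest of the 10 members. The promoter site had its summit at -140, was 419 bp wide, reached into the transcribed part and had a fold enrichment of 3.97, 3.75 and 2.74. Upstream of 1000 bp the signal was 0.638 ± 0.0781, and no site was called there although the next gene (DMR6) was 5912 bp away. The site across its TSS was the sole shared site of TTG1.

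GL2, the homeodomain (HD-ZIP IV) target of the complex, lies on the plus strand of chromosome 1, from 30036956 to 30041440. Its promoter signal was 1.65, 2.17 and 2.04 times the library mean, a mean of 1.96 ± 0.271 (SD, n = 3), at percentile 73.0. All libraries lay above the median protein-coding gene. The promoter site, printed above, had its summit at -263 with a fold enrichment of 2.52, 3.62 and 2.63, and the highest window from 1000 bp upstream to 500 bp downstream of the TSS lay at -331, -331 and -306 in libraries 1, 2 and 3. The peak of accessibility thus stood apart from the TSS, and the first 400 transcribed bp had a signal of 0.841 ± 0.105 (percentile 22.5).

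GL2 had 7 sites in its window, the most of any member, of which 3 were shared. The upstream site printed above, at -1216, was 175 bp wide with a fold enrichment of 2.45, 4.27 and 2.67. The site at -2972 had a fold enrichment of 4.08, 5.19 and 3.05, but its summit lay 77 bp from the TSS of the divergent gene GC5 (AT1G79830), inside the promoter of that gene. Sites at -2273, -1647 and -859 were called in pairs of libraries, with a fold enrichment of 2.00 to 3.39. Library 2 gave the highest value at each shared site of GL2.

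**Figure D3:**
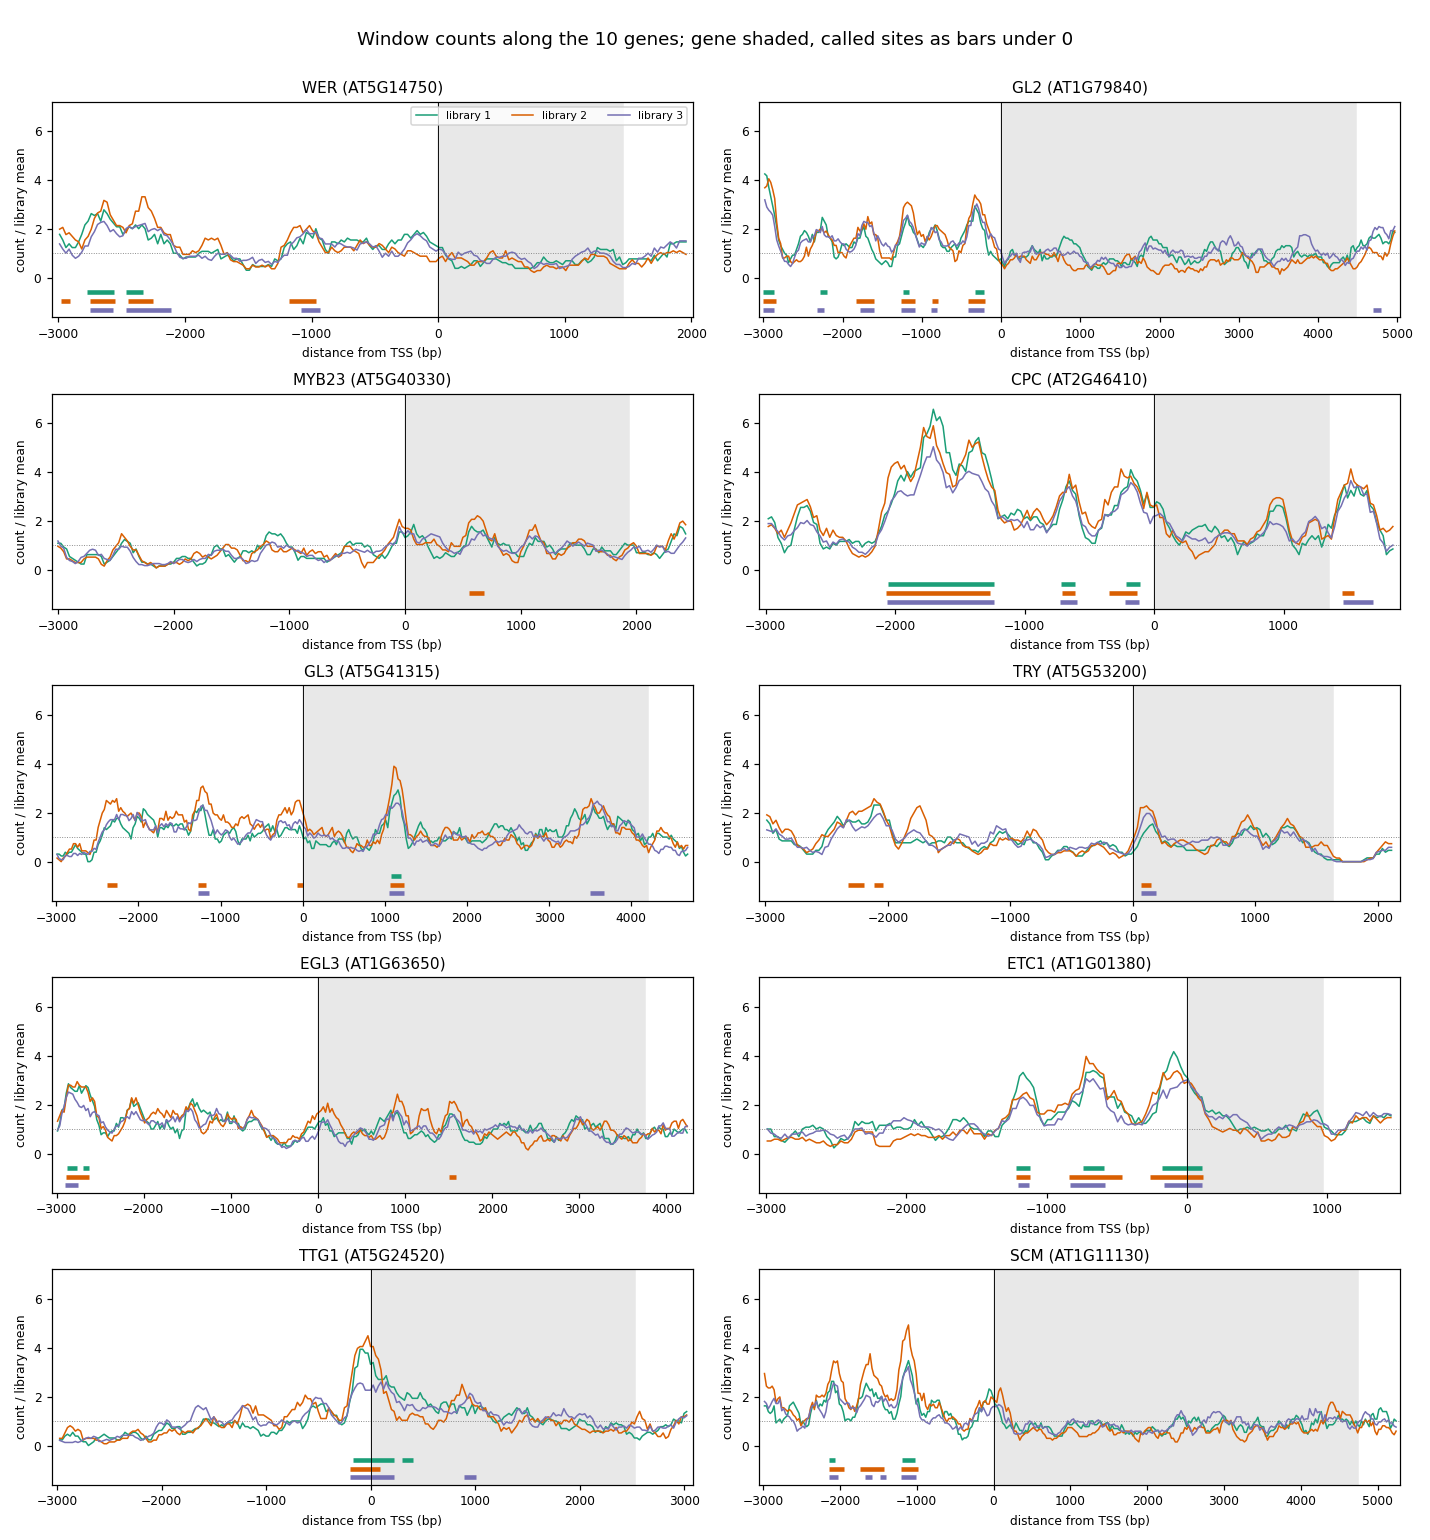
Read count per 100 bp window divided by the library mean (y axis) against distance from the TSS in bp (x axis), for each gene in its own panel, with the gene shaded and the dotted line at 1. Lines are libraries 1, 2 and 3 and bars under 0 mark the sites called in each. The broad rise around -1686 upstream of CPC, the separate peaks upstream of GL2 and the low signal far upstream of MYB23 recur in all libraries.

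The R3 MYB genes CPC, TRY and ETC1, whose products inhibit the complex, spanned the whole range of the members. CPC, the main inhibitor in the root, lies on the minus strand of chromosome 2, from 19049021 to 19050369. Its promoter signal was 2.96, 3.24 and 2.67 times the library mean, a mean of 2.96 ± 0.284 (SD, n = 3), at percentile 92.5, and rested on 98.0 to 163 estimated reads a library. Over these 400 bp the lowest CPC library lay above the highest ETC1 library. The promoter site, printed above, had its summit at -172 and a fold enrichment of 3.10, 2.89 and 2.94, within a narrow range. A second site at -675, 132 bp wide, had 2.84, 2.71 and 2.63.

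The widest site of all members lay upstream of CPC at -1686. It covered 837 bp in all libraries together, with a fold enrichment of 4.15, 3.85 and 3.51, and its signal over 200 bp on the summit was 5.79, 5.08 and 4.33 times the library mean. The mean of 5.07 ± 0.733 (SD, n = 3) stood at percentile 96.9 of the 20186 shared sites of the genome, whereas the median over the 16 shared member sites was percentile 33.9. Every library of this site lay above every library of the other shared member sites. The summit lay at -1701, -1432 and -1686 in libraries 1, 2 and 3. It was thus nearer to the TSS of the divergent gene AT2G46420 in libraries 1 and 3 and nearer to CPC in library 2. Over 3000 to 1000 bp upstream CPC had 2.82, 2.84 and 2.36 times the library mean, at percentile 98.0 of protein-coding genes. Past the gene end it had 2.44 ± 0.209 over 500 bp (percentile 93.8), with a site at 1526 called in libraries 2 and 3. CPC thus had the highest mean signal of the members over 3000 to 1000 bp upstream and over the 500 bp past the gene end. The same held for its gene beyond the first 400 transcribed bp (1.52, percentile 87.5). Over those first 400 bp it had 1.53 (percentile 62.8), below TTG1 and ETC1. From 1000 to 400 bp upstream ETC1 was slightly higher, at 2.24 beside 2.21 times the library mean.

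ETC1, which acts with CPC and TRY, lies on the plus strand of chromosome 1, from 147043 to 148014. The ETC1 promoter had a signal of 2.46, 2.40 and 2.06 times the library mean, a mean of 2.31 ± 0.219 (SD, n = 3), at percentile 82.0. The promoter site had its summit at -105, was 377 bp wide and reached into the transcribed part, with a fold enrichment of 4.05, 3.72 and 3.00. Shared sites at -703 and -1162 had 3.28, 3.77 and 2.79, and 3.47, 2.99 and 2.44. Both summits lay inside HTR12 (AT1G01370), the gene of the centromeric histone H3, which ends 564 bp upstream of ETC1. Library 3 was the lowest at all of these sites.

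TRY, better known from leaf hairs, where it inhibits neighbouring cells, lies on the plus strand of chromosome 5, from 21582614 to 21584243. The TRY promoter had a signal of 0.554, 0.460 and 0.560 times the library mean, a mean of 0.525 ± 0.0565 (SD, n = 3), at percentile 11.7. This was the lowest of the 10 members, and it rested on 15.8 to 34.1 estimated reads a library. From 1000 to 400 bp upstream the signal was similar, at 0.596 ± 0.0717 (percentile 16.8). All 61-base stretches of the promoter occur once in the genome when exact copies are counted. Near copies were not searched, so a loss of reads to them was not tested. Downstream of the TSS a site at 82, in the 5′ untranslated exon, was called in libraries 2 and 3 with a fold enrichment of 3.54 and 2.72, but its signal over 200 bp was 0.974, 1.76 and 1.41 times the library mean. The 500 bp past the gene end had 0.187 ± 0.0420 (percentile 2.59), and there 79.1% of 61-base stretches were unique, and reads from the repeated stretches had been discarded in alignment. How far this lowered the value was not tested. TRY had no shared site in spite of the 8285 bp that separate it from the next gene upstream, SWEET3.

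SCM (RefSeq symbol SUB), the receptor-like kinase, lies on the plus strand of chromosome 1, from 3722708 to 3727450. The SCM promoter had a signal of 1.28, 1.41 and 1.25 times the library mean, a mean of 1.31 ± 0.0867 (SD, n = 3), at percentile 48.5. The promoter was thus near the median gene in all libraries. Close to the TSS the signal rose, with a mean of 1.70 over 200 bp upstream. From 1000 bp upstream to 500 bp downstream the highest windows lay at -58, 92 and 67 in libraries 1, 2 and 3. They reached 2.31, 2.35 and 1.68 times the library mean. Farther out the mean signal was above that of the 400 bp promoter, with 1.91 ± 0.355 from 3000 to 1000 bp upstream (percentile 89.9). The site at -1120, printed above, had a fold enrichment of 3.89, 4.99 and 3.49, with a geometric mean of 4.08. This was the highest geometric mean of the 35 sites, close to the 4.01 of the GL2 site at -2972, which was higher in libraries 1 and 2, and the CPC site at -1686 was higher in libraries 1 and 3. Its signal over 200 bp was 2.84, 4.11 and 2.72 times the library mean, library 2 being the highest. A further shared site at -2090 had 3.12, 3.46 and 3.08 and lay 1966 bp from the TSS of AT1G11125, and a site at -1639 was called in libraries 2 and 3.

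**Figure D4:**
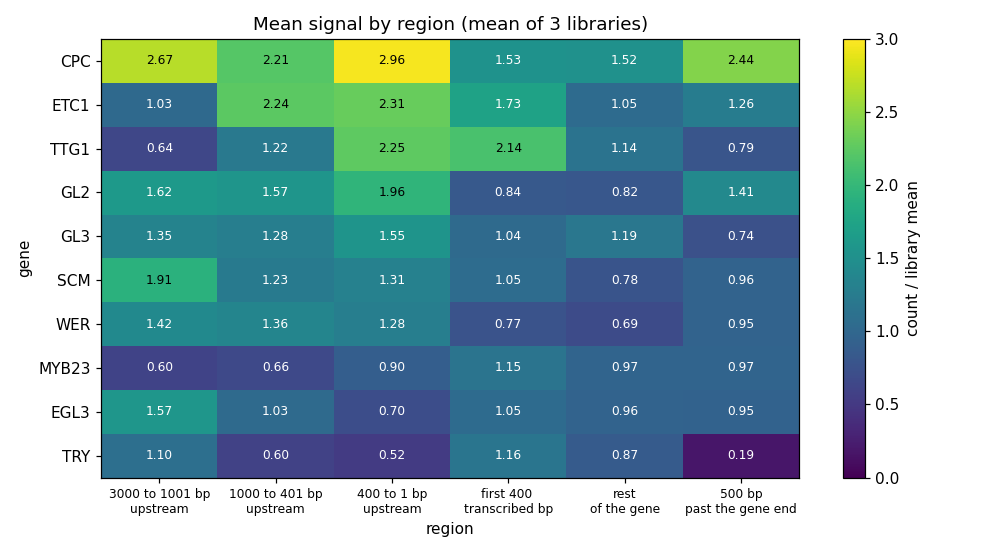
Mean signal over 3 libraries, in units of the library mean (colour and printed value), by region from 3000 bp upstream to 500 bp past the gene end (x axis) for the 10 genes in order of promoter signal (y axis). CPC is high upstream and past the gene end, SCM is higher at 3000 to 1000 bp upstream (1.91) than in its promoter (1.31), and TTG1 is high from its promoter into its first 400 bp.

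Set side by side, the members were above the median protein-coding gene more often upstream than in the gene. From 3000 to 1000 bp upstream 7 of 10 exceeded that median, as did 7 from 1000 to 400 bp, 5 in the promoter, 3 over the first 400 transcribed bp, 4 over the rest of the gene and 3 past its end. The upstream counts are not matched for neighbouring genes. No other gene lay within 3000 bp upstream of 7 of the 10 members, but of only 3275 of the 27444 protein-coding genes. No median over such genes alone is given here. The medians over members were 1.39, 1.26, 1.43, 1.10, 0.966 and 0.955 times the library mean in these regions. The matching medians over protein-coding genes were 1.03, 1.12, 1.35, 1.30, 0.999 and 1.06. The members' median was highest in the promoter, as it was for protein-coding genes. It was lower than that of protein-coding genes from the TSS onward, a difference that was not tested.

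The shape of the signal from 1000 bp upstream to 500 bp downstream of the TSS was most alike in MYB23 and TTG1, with Pearson r = 0.81 between their mean profiles over 61 positions. EGL3 and SCM followed with r = 0.78 and CPC and ETC1 with r = 0.73. These are the highest values over all pairs of members, which ran down to r = -0.55 (MYB23 and GL2). Adjacent positions share reads and all profiles come from the same libraries, so r is a description. It compares shapes and not levels, since the promoter signal of TTG1 was 2.25 and that of MYB23 0.898 times the library mean. In both the profile was highest near the TSS, at -78, -28 and 147 in TTG1 and at 75, -50 and -50 in MYB23.

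Motifs were searched on both strands in 200 bp centred on the summits of the 16 shared sites. AACNG was found at 10 of them (62.5%), beside 64.6% of all shared sites. CANNTG, the E-box core bound by bHLH proteins, was at 11 (68.8%) beside 56.0%, and CACGTG, the G-box that is a form of it, at 3 (18.8%) beside 12.1%. These 3 were the sites of EGL3 at -2652, CPC at -1686 and ETC1 at -703. TTGACC, a form of the W-box bound by WRKY proteins, was at 5 (31.3%) beside 12.4%, and the related TTGACT at 2 (12.5%) beside 16.6%. The 5 were the sites of EGL3 at -2652, GL2 at -263, CPC at -1686, ETC1 at -703 and SCM at -1120. At the EGL3 site the library 3 call ended at -2752, so the 200 bp searched lay almost wholly outside that call. The L1 box, TAAATGCA or TAAATGTA, which HD-ZIP IV proteins recognise, was at none, beside 0.852% and 1.61%. The members' counts are small, and no difference from the background was tested.

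Of 13 other genes of the network or of the related leaf hair network, 3 had a promoter site in every library (TTG2, MYC1 and QKY) and 2 a shared upstream site outside other genes (GEM and ZFP5). Over all protein-coding genes the matching shares were 33.5% and 18.1%. The median promoter signal of the 13 genes was 1.28 times the library mean, beside 1.43 for the members. The highest were ZFP5, a zinc finger protein that promotes root hairs, with 3.14, 3.67 and 2.79 times the library mean, and TTG2, a WRKY protein acting downstream of the complex, with 2.73, 3.31 and 2.52. The lowest were ETC2, an R3 MYB acting in leaf hairs, with 0.453, 0.386 and 0.421, and TCL1, another R3 MYB of shoot hairs, with 0.641, 0.653 and 0.573. The ETC2 values lay below those of TRY in every library. Among R3 MYB genes of both lists the promoter signal thus ran from 0.420 (ETC2) to 2.96 (CPC).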

How the data were processed

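ATAC-seq libraries were made by the authors from INTACT-purified nuclei and sequenced from a single end. Alignment to TAIR10 was with bowtie, and reads matching more than 1 place were dropped, as were PCR duplicates (SAMtools). MACS2 was run on each library by itself. The deposited window files hold raw read counts over windows of 100 bp every 25 bp, with empty windows left out. How reads were counted over windows, and whether they were shifted to the transposase cut site, is not given in the sources used here. The deposited peak lists hold a score (not used), a fold enrichment (a ratio over the MACS2 background at the summit), and p-values and q-values as −log10. No deposited −log10 q was under 1.31.

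Empty windows were set to 0. Signal was the mean count over windows centred in a region divided by the library mean (13.0, 13.6 and 23.9 counts per window), with mean ± SD over 3 libraries. A read filled 6.27 to 6.34 windows, which gave the estimated reads behind the exact 95% Poisson intervals. Peaks that overlapped by 1 bp were joined into sites, and a site counted as shared when each library called it. A promoter site overlapped the 400 bp upstream of the TSS. Genes, TSS and sequence were taken from RefSeq (TAIR10.1), whose chromosomes bounded all windows of the files. Motif matches and unique 61-base stretches were counted in that sequence. Python 3.11.15, numpy 2.4.6, pandas 2.3.3, scipy 1.17.1 and matplotlib 3.10.9 were used. The scripts were tested on simulated data.

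The members, the lists of pathway and marker genes and the tests were chosen with earlier results of these data known. All 10 members are named, with the 2 highest and 2 lowest of the other pathway genes and, named after their values were seen, those with shared sites. Another gene is named where it holds a site or lies next upstream. With a single group there was no contrast, so counts stand beside the same counts over all protein-coding genes and no p-value across genes is given. The alternatives varied the peak threshold, reach, overlap, scale, anchor, number of libraries and reference genes. Those for upstream sites, with the reference of genes without an upstream neighbour, were chosen after seeing the data.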

Additional observations from a re-analysis of the deposited data

How the results depend on the processing

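The count of members with a shared promoter site was 4 under every alternative tried and without any single library, except that 3 were left when sites needed a −log10 q of at least 5. The 35 sites became 22 with that threshold and 17 when windows ran from 1000 bp upstream to the gene end. They numbered 46 when joining needed 50% reciprocal overlap, 24 with lists of equal length, and 30 to 34 without a library in turn. The median promoter signal of 1.43 became 1.93 with the highest window in place of the mean, 1.06 when scaled to the median promoter (another scale by construction) and 1.26 with the start codon as anchor. Without a library in turn it was 1.41 to 1.51. The 5 members with a shared upstream site became 4 with the stricter threshold, and 6 when 2 of 3 libraries sufficed or sites at other genes were kept. Without a library in turn they were 5 to 6, the 6 without library 1. These alternatives were added after seeing the data. Of 90 alternatives of a single member's promoter signal, 55 lay within 1 SD of the value given and 35 beyond. CPC was highest except over 200 bp upstream and from the start codon, where TTG1 was and ETC1 came next. TRY was lowest except from the start codon, where SCM was (0.990, TRY 1.07). No paired analysis was possible because with a single group no groups could be paired, and genes were set side by side within libraries.

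Depth limits the low promoters most. TRY rested on 15.8 estimated reads in library 2. A missing call at this depth does not show that DNA was closed, and whole roots cannot show in which cells a site was open.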
